A study of Homo sapiens with 3 samples.

Results

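The guanylate-binding proteins are a family of 7 human genes, GBP1 to GBP7, and their RNA was measured in RCC4 cells under inflammatory cytokines. The members were taken by gene name: 7 of the 60605 rows of the deposited gene table carry one of these names. RCC4 is an established line of human clear cell renal carcinoma without working VHL, and the cells had been transduced with a lentiviral Cas9 vector before the experiment. All 3 libraries came from 1 group, RCC4 cells kept for 24 h in IFN-gamma at 1000 U/mL and TNF at 25 ng/mL, with each biological replicate collected from 3 flasks. No untreated or single-cytokine library was analysed here, so every value is a level in treated cells and none is a response to the cytokines.

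Guanylate-binding proteins are large GTPases of the dynamin superfamily. Their genes are classic targets of IFN-gamma: the receptor activates the kinases JAK1 and JAK2, and IRF1 is among the factors that then switch on the promoters. In human cells the proteins assemble on the surface of invading bacteria and on the vacuoles of pathogens. There GBP1 acts as the pioneer that binds lipopolysaccharide and brings in GBP2, GBP3, GBP4 and the inflammatory caspase CASP4. GBP1, GBP2 and GBP5 end in a CaaX box, a signal for a lipid anchor that holds them to membranes.

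Gene reads numbered 29199806 in replicate 1, 26264283 in replicate 2 and 33458691 in replicate 3. Levels are given as RPKM, reads scaled to exon length and to TMM library size, as mean ± SD over the 3 libraries. Replicate 1 stood apart from the other 2 libraries in a way that followed the GC content of transcripts, so results that rest on it are also given without it. The renal carcinoma label was checked against markers: all 6 epithelial and clear cell markers were detected (PAX8, CA9, NDUFA4L2, KRT8, KRT18 and VIM), with a summed level of 826 to 1113 RPKM. VIM alone gave 477 to 625 RPKM of that sum. PAX8 stood at 1.46 RPKM, with 95.7% of its exon length inside the spans of other genes. Of the leukocyte markers 1 of 6 was detected, ITGAM, with a summed list level of 0.207 to 0.298 RPKM, and PTPRC, CD3E, CD68 and LYZ were listed at 0 reads. Other genes' spans cover all of the CD68 exons and 41.6% of those of LYZ, so of these PTPRC and CD3E, with 0% covered, are the clearer zeros. None of 3 endothelial markers and 1 of 4 fibroblast markers, COL1A1, reached the detection level.

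Most of the family was expressed, while GBP6 missed the detection level and GBP7 was close to 0. At a level of at least 1 CPM in every library, 5 of 7 members were detected (GBP1, GBP2, GBP3, GBP4 and GBP5), where 51.4% of 19861 protein-coding genes were. From high to low the order was GBP1, GBP4, GBP2 with GBP3, GBP5, GBP6 and GBP7. The median member stood at 44.9 RPKM, where the median protein-coding gene stood at 0.482 RPKM. GBP6, at 0.295 RPKM, was thus not far below that median and ranked 10382 of the 19861 genes. GBP7, at 0.0178 RPKM, ranked 12806.

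GBP1, the pioneer of the coat, had 612, 745 and 794 RPKM in replicates 1, 2 and 3, or 717 ± 94.2 RPKM (SD, n = 3). It ranked 31 of 19861 protein-coding genes by mean RPKM and was lowest in replicate 1. GBP4, which GBP1 recruits and which takes part in the activation of CASP4, had 108, 111 and 108 RPKM, with a mean of 109 ± 2.1 RPKM. On this scale it was the steadiest member, with a coefficient of variation of 1.92%, but the place depends on the scaling. With library totals only, its log2 SD was 0.110 against 0.102 for GBP2. After a correction for GC content it was 0.375, higher than that of any other member but GBP3. GBP2, a prenylated member that also restrains the protease furin, had 46.3, 41.6 and 46.8 RPKM, with a mean of 44.9 ± 2.86 RPKM.

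GBP3, the member closest to GBP1 in sequence, had 16.1, 53.8 and 65.5 RPKM in replicates 1, 2 and 3. Its mean of 45.2 ± 25.8 RPKM thus joins a low library with a pair of higher ones, and its coefficient of variation was 57.1%. GBP5, a prenylated member linked to inflammasome assembly and, like GBP2, to furin, had 6.36, 8.90 and 9.36 RPKM, with a mean of 8.21 ± 1.61 RPKM. It too was lowest in replicate 1.

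GBP6 had 21, 22 and 37 reads, which is 0.259, 0.271 and 0.356 RPKM, and missed the detection rule of 1 CPM in every library, with 0.773, 0.810 and 1.06 CPM. GBP7 had 0, 2 and 2 reads. In replicate 1 its count of 0 allows up to 3 reads, or 0.0450 RPKM over its whole exon length. Neither gene was near the other 5 in any library: the highest value of GBP6, 0.356 RPKM, lay far below the lowest value of GBP5, 6.36 RPKM.

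**Figure D1:**
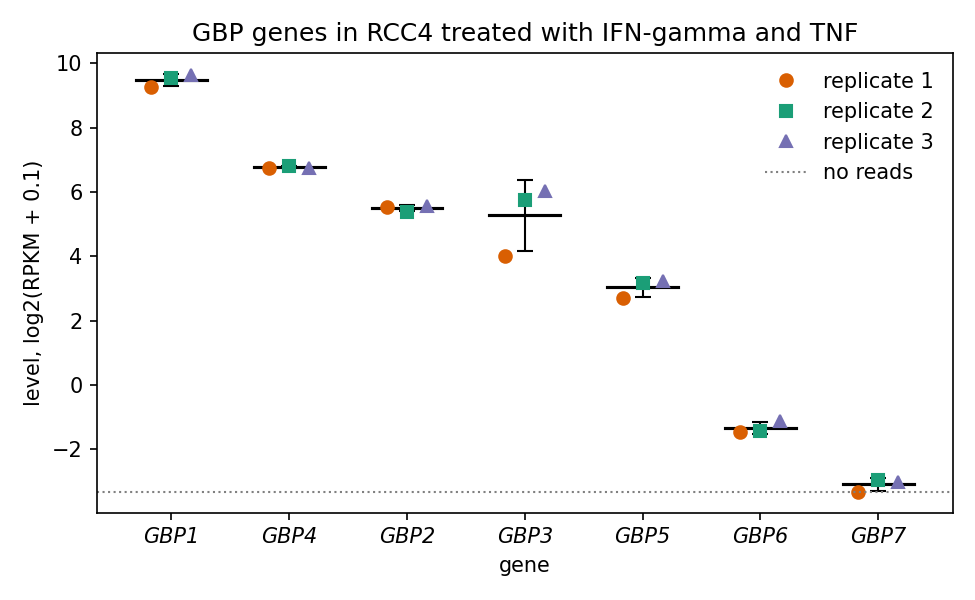
Level of each GBP gene on the log2(RPKM + 0.1) scale in the 3 libraries (orange circle, replicate 1; green square, replicate 2; purple triangle, replicate 3), with the mean as a line and the SD as bars. GBP1 lies highest at 612 to 794 RPKM, and the replicate 1 point of GBP3 lies apart at 16.1 RPKM. GBP7 lies lowest, with its replicate 1 point on the dotted line of no reads and the others just above it.

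Ratios between members were formed within each library, so that they do not depend on library size. Members were said to differ where a log2 ratio, on the log2(RPKM + 0.1) scale, kept its sign throughout and its mean was over 2 SD. By this rule 8 of the 10 pairs of detected members differed past the spread of the replicates, where 78.3% of all pairs of detected protein-coding genes do, a like share. With the pairs that include GBP6 or GBP7 the count was 19 of 21, for which no share over all genes was computed. An exact sign-flip test over 3 libraries cannot go below a two-sided p of 0.25, so no p is given for any ratio.

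GBP1 exceeded GBP4 by 2.51, 2.74 and 2.87 on the log2 scale, a mean of 2.71 ± 0.18 or 6.53-fold. GBP4 exceeded GBP2 by 1.21, 1.42 and 1.21, a mean of 1.28 ± 0.12 or 2.43-fold. Both steps were of like size in all libraries. With the longest coding transcript as length, the step between GBP1 and GBP4 was 3.42 and that between GBP4 and GBP2 was 0.52. With the gene span as length the step between GBP4 and GBP2 was 2.55. GBP2 over GBP3 was 1.51 in replicate 1 but -0.37 and -0.48 in replicates 2 and 3, with a mean of 0.22 ± 1.12, so these neighbours were not separated. Without replicate 1, GBP2 over GBP3 was -0.43 ± 0.08, which puts GBP3 above GBP2 past the spread of replicates 2 and 3. The ratio of GBP4 to GBP3, 1.5 ± 1.07, was the other pair that did not exceed it. GBP4 was higher than GBP3 in each library, by 2.73, 1.05 and 0.72, and without replicate 1 this pair too was past the spread, as all 21 then were. Those calls rest on replicates 2 and 3 alone, and the share of all gene pairs that meet the rule there was not computed.

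GBP3 exceeded GBP5 by 1.33, 2.58 and 2.79 on the log2 scale, a mean of 2.24 ± 0.79 or 4.71-fold. This call was lost without replicate 2, at 2.06 ± 1.04, while the direction stayed. GBP5 exceeded GBP6 by 4.17, 4.60 and 4.37, a mean of 4.38 ± 0.21 or 20.8-fold. The size of this step depends on the scale: it was 2.81 with a pseudocount of 1 RPKM, 5.17 over exons outside other spans and 6.08 without length scaling. GBP6 was above GBP7 in every library, but no fold is given because GBP7 had at most 2 reads in any library.

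The family took 0.384%, 0.514% and 0.549% of all gene reads in replicates 1, 2 and 3, or 0.482% ± 0.087 (SD, n = 3). Its lowest share was that of replicate 1. Within the family, GBP1 took 74.0%, 74.9% and 75.1% of the reads. That share varied little, at 74.7% ± 0.54, and was 77.5% ± 0.058 when reads were first divided by exon length. GBP4 took 16.0%, 13.7% and 12.6%, and GBP2 took 7.04%, 5.26% and 5.56%. GBP3 supplied 1.68% of family reads in replicate 1 but 4.65% and 5.33% in replicates 2 and 3. GBP5 stayed between 1.26% and 1.46%.

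**Figure D2:**
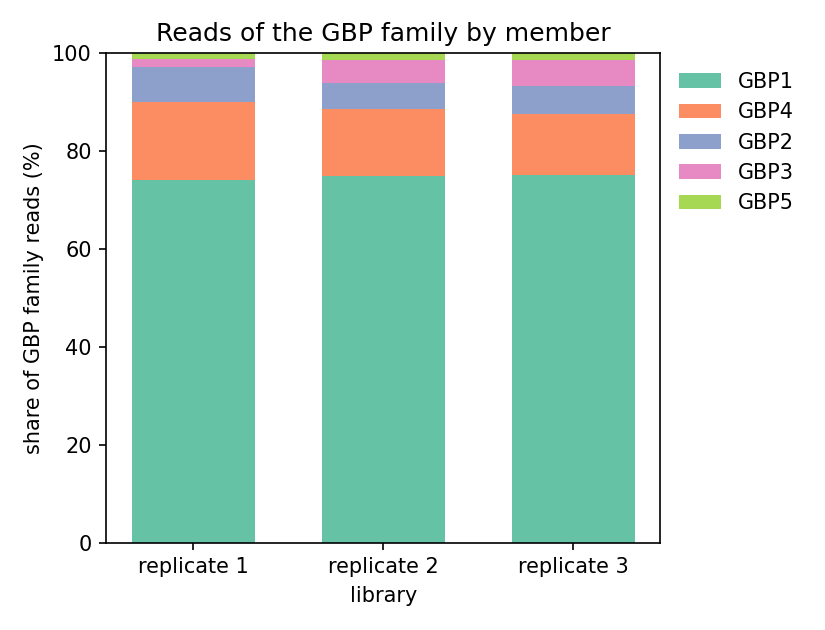
Share of the reads of all 7 GBP genes taken by GBP1, GBP4, GBP2, GBP3 and GBP5 in each library, as stacked bars that start at 0 (GBP6 and GBP7 are too small to draw). GBP1 holds 74.0% to 75.1% in every library, while the GBP3 segment is 1.68% in replicate 1 and 4.65% and 5.33% in replicates 2 and 3.

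All 7 genes lie together on chromosome 1. In GENCODE 29 (GRCh38), which need not be the release the authors used, GBP3 spans 89006666 to 89022894, GBP1 spans 89052319 to 89065360, and GBP2 spans 89106132 to 89150456. GBP7 follows at 89131751 to 89176040, GBP4 at 89181148 to 89198932 and GBP5 at 89258950 to 89272804. These 6 are on the minus strand. The identifiers in the deposited table are ENSG00000117228.11 for GBP1, ENSG00000162645.13 for GBP2, ENSG00000117226.12 for GBP3, ENSG00000162654.9 for GBP4, ENSG00000154451.14 for GBP5, ENSG00000183347.15 for GBP6 and ENSG00000213512.3 for GBP7. GBP6, at 89364058 to 89386461, is on the plus strand.

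Detected members were thus neighbours of undetected ones, and the order along the chromosome was not the order of levels. Within 500 kb of the cluster lay 28 other annotated genes, of which 6 were detected: PKN2, GTF2B, KYAT3, PTGES3P1, GBP1P1 and LRRC8D. Another 16 were listed at 0 reads in every library, and for 13 of these 80% or more of the exon bases lie within other genes. GBP1P1, annotated as a transcribed pseudogene at 89407679 to 89426243, had 709, 1079 and 1552 reads and stood at 15.7 ± 4.08 RPKM. RefSeq lists it under the synonym LIMIT, the name of a noncoding RNA known as interferon-responsive and as an activator of GBP genes. Over all exons its level lay above that of GBP5 and below those of GBP2, GBP3 and GBP4 in every library. Over exons outside other genes' spans the mean of GBP5 was 14.3 RPKM, close to that of GBP1P1. Of the distinct 50-base stretches of GBP1P1, 16.6% occur in other genes and 14.1% in GBP1. At 100 bases 2.34% do. GBP1 had 82951 reads in replicate 1, and how many GBP1P1 reads arose from GBP1 was not tested.

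**Figure D3:**
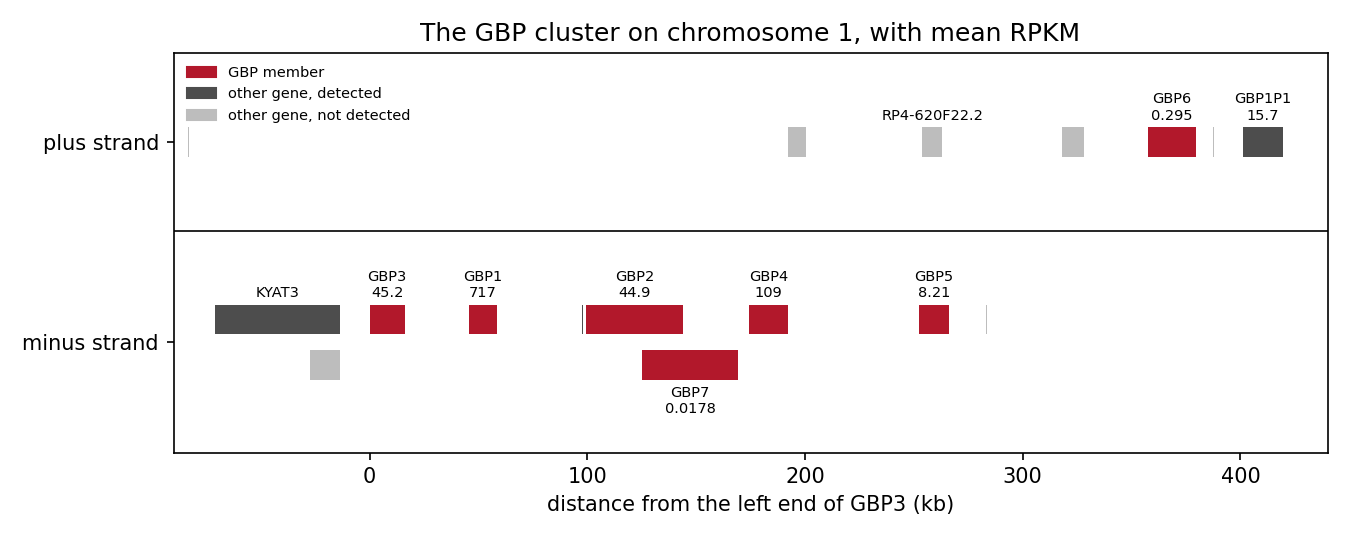
Map of the GBP cluster, drawn to scale as distance in kb from the left end of GBP3, with plus-strand genes above the line and minus-strand genes below it. Red bars are GBP members with their mean RPKM, dark bars are other detected genes and pale bars are other genes that were not detected; the bars of GBP2 (44.9 RPKM) and GBP7 (0.0178 RPKM) overlap.

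Spans of other genes also cover parts of some members. Of the exon length of GBP7, 64.0% lies inside the GBP2 span on the same strand, and 883 bases lie outside. Over those 883 bases the count of 0 in replicate 1 allows up to 0.125 RPKM. The overlap depends on the annotation: RefSeq (GRCh38.p14) ends GBP2 at 89126114, short of the GBP7 start at 89131742. Of the GBP2 exons 9.89% lie inside the GBP7 span.

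GBP5 has 42.5% of its exon length inside the span of an antisense gene on the plus strand, RP4-620F22.2 (89260582 to 89269754), which was listed at 0 reads in every library. Whether counting used strand is not given in the sources used here. With all its reads divided by the exon length outside that span GBP5 stood at 14.3 RPKM, against 8.21 RPKM over all exons. The reads are per gene, so any that fell inside the span could not be left out. GBP1 and GBP6 have no exon inside another span, and GBP3 and GBP4 have 1.54% and 2.25%. The part of overlap in the low count of GBP7 was not tested; for GBP6 the overlap was 0%. Of the 9483 protein-coding genes with no such overlap, 52.4% were detected.

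**Figure D4:**
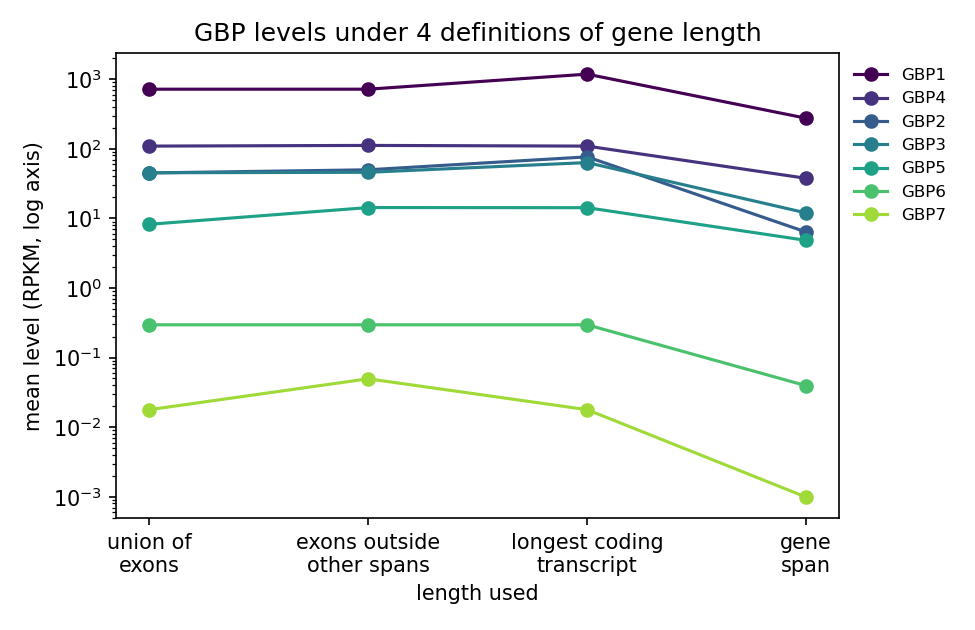
Mean RPKM of each GBP gene (log axis) when reads are divided by the union of exons, by exons outside other genes' spans, by the longest coding transcript or by the whole gene span. GBP1 stays highest and GBP4 next under all 4, and GBP5 moves from 8.21 to 14.3 RPKM with the exon length outside other spans. With the gene span GBP3 is at 12.0 RPKM and GBP2 at 6.36 RPKM.

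The members resemble each other, and reads from identical stretches cannot be assigned with certainty. Aligned over their coding sequences, GBP1 and GBP3 were 91.6% identical, the highest of the 21 pairs. GBP4 and GBP7 followed at 85.2%, GBP2 and GBP3 at 82.7% and GBP1 and GBP2 at 82.4%. GBP3 and GBP6 were the least alike at 64.1%. Pairs close in sequence lay both near and far apart in level. GBP2 and GBP3 were not separated, while GBP1 stood 18.5-fold above GBP3 (log2 4.21 ± 0.90), and GBP4 had 17886 to 23096 reads where GBP7 had at most 2.

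Sharing was lower at the longer length for each member. Of the distinct 50-base stretches in the transcripts of GBP1, 9.62% also occur in another gene, most of them in GBP1P1, and 1.09% of its 100-base stretches do. For GBP3 the shares were 4.76% at 50 bases and 0% at 100 bases. GBP7 had the most, 24.0% and 21.3%, mostly with GBP2. The coding sequences of GBP2 and GBP7 were only 67.5% identical, with a longest common stretch of 23 bases, so likeness of coding sequence does not give these shares. The annotated spans of GBP2 and GBP7 overlap on the same strand, with 9.89% of GBP2 exon length inside the GBP7 span. Whether the shared stretches are the same genomic bases annotated to both genes was not tested. GBP2 had 10.2% and 8.42%, GBP4 had 5.92% and 0.764%, and GBP5 had 3.12% and 1.5%. GBP6 had 1.16% and 0%. The read length is not given in the sources used here, so the share that applies is unknown. The longest stretch common to the coding sequences of GBP1 and GBP3, shown because no read inside it can tell the 2 genes apart, is 99 bases long. It lies at 89056085 to 89056183 in GBP1 and at 89010973 to 89011071 in GBP3 (chromosome 1, GRCh38, minus strand), in coding exons.
GBP1 and GBP3 shared stretch: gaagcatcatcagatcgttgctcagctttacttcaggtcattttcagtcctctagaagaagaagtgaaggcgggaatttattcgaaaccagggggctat

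Start-site windows, 250 bases before to 50 bases after the annotated start, were taken from RefSeq (GRCh38.p14) for GBP1, GBP3, GBP4, GBP6 and GBP7; GBP2 and GBP5 had none in that table. Each was searched on both strands for TTTCNNTTTC, the core of the interferon-stimulated response element that IRF factors bind. The other pattern was TTCNNNGAA, a strict palindromic form of the gamma-activated site of interferon-responsive promoters. Looser forms were not searched, so a window without a match may still hold such a site. The first pattern was found in GBP1, GBP3 and GBP4 and in 3.57% of 35116 windows of the same length. The second was found in GBP3 and in 7.66% of windows. The windows of GBP6 and GBP7 held neither pattern, which says only that those letters are not in them. The windows with a match and that of the least expressed member, GBP7, are shown, 5′ to 3′ on the gene's own strand. Capitals mark the matches, which do not overlap each other.
GBP1 (chr1:89065159-89065458, minus strand): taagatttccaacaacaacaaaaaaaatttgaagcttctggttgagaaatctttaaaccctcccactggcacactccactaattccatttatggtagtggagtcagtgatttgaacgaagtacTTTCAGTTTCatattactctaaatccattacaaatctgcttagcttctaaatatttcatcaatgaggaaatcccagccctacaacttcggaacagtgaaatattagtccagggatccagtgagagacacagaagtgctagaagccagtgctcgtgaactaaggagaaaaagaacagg
GBP3 (chr1:89022817-89023116, minus strand): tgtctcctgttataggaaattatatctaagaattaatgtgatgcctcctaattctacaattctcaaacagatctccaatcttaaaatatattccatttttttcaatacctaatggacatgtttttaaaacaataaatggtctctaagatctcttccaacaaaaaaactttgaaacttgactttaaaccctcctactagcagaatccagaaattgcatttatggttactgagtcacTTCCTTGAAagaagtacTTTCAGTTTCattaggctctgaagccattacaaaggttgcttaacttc
GBP4 (chr1:89198893-89199192, minus strand): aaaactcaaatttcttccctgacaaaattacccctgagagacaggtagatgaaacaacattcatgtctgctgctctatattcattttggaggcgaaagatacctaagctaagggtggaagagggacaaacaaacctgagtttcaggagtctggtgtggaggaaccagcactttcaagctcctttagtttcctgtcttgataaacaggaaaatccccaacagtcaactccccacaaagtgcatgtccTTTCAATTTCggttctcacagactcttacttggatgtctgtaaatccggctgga
GBP7 (chr1:89175954-89176253, minus strand): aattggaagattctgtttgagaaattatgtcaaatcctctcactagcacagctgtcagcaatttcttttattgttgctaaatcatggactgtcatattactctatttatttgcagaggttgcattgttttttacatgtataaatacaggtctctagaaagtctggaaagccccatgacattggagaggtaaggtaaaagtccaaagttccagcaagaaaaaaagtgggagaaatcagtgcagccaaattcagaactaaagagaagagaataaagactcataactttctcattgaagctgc

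The windows of GBP1 and GBP3 align over 144 bases at 81.25% identity, and their longest common stretch, 19 bases, holds the first pattern whole. The form found in both, TTTCAGTTTC, occurs in 0.265% of windows. It begins 127 bases before the annotated start of GBP1 and 2 bases after that of GBP3. In GBP4 the form is TTTCAATTTC, 4 bases before the start. The shared stretch of GBP1 and GBP3 stands below, with the pattern in capitals. A match describes the letters and shows no binding in these cells.
GBP1 and GBP3 start-site stretch: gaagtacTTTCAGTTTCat

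Replicate 1 was set against the mean of replicates 2 and 3 for each detected member. GBP3 had the lowest value, at 27.1% of the other libraries' mean, with 1884 reads in replicate 1 and 6280 and 9798 reads in replicates 2 and 3. GBP5 stood at 69.7%, GBP1 at 79.5%, GBP4 at 97.8% and GBP2 at 105%. One of the 5 detected members, GBP3, was thus below 50%, where 13.7% of the 9095 protein-coding genes averaging 5 CPM or more were. A count of 1 says little about the family.

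The transcripts of the family are rich in A and T, with a GC content of 41.5% to 45.2% against a median of 48.8% for those 9095 genes. In the GC bin that holds GBP1, GBP2 and GBP3, the sixth of 20, the median gene stood at -0.33 in replicate 1 on the log2 scale. GBP1, at -0.33, lay in the middle of that bin. GBP2, at 0.07, lay above most of it, with 85.9% of the bin at or below its value. GBP3, at -1.89, was among the lowest 5 of the 455 genes there.

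The 2 members in the fourth bin, where the median gene was at -0.68, also differed. GBP5, at -0.52, lay near the middle, and GBP4, at -0.03, had 90.1% of its bin at or below it. After the median of each GC bin was removed, GBP3 remained at -1.55, and 4.18% of the 9095 genes were then below 50%. GBP2 and GBP4 stood at 0.40 and 0.64 after that correction, against 0.07 and -0.03 before it. Between replicates 3 and 2 the log2 ratios of the 5 detected members ran from -0.04 for GBP4 to 0.28 for GBP3.

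**Figure D5:**
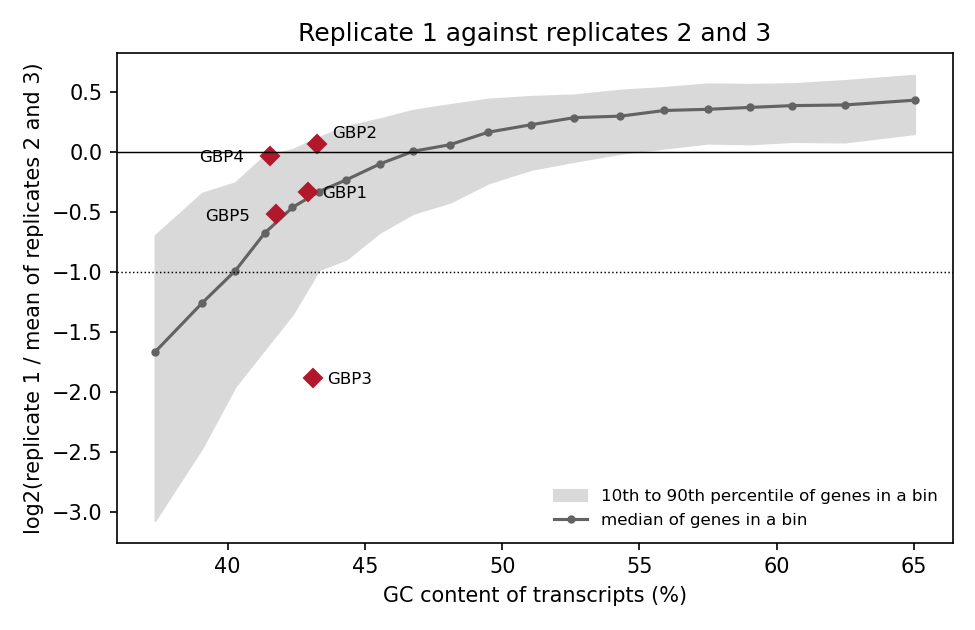
Replicate 1 over the average of the other libraries (log2) against the GC content of transcripts, for 20 bins of protein-coding genes (line, bin median; grey band, 10th to 90th percentile) and for the 5 detected GBP genes (red). GBP3 lies at -1.89, below the band, while GBP1 lies on the bin median at -0.33 and the dotted line marks 50%.

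Genes that act before and after the GBP proteins were counted from lists of the pathway, for context. Of 15 genes of the inducing pathway 11 were detected, with a list median of 19.1 RPKM. SOCS3, a feedback inhibitor, stood at 97.6 ± 17.2 RPKM, the TNF receptor TNFRSF1A at 55.3 ± 10.4 RPKM and JAK1 at 52.7 ± 2.79 RPKM. IRF1 and SOCS1 were listed at 0 reads, IRF8 had 4, 8 and 4 reads and IRF9 had 2, 6 and 9. IRF1, SOCS1 and IRF9 lie wholly inside other spans, so their low counts are given only as listed.

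Among 15 related large GTPases 11 were detected, with a median of 0.707 RPKM. The highest were the mitofusin MFN2 at 36.0 ± 8.90 RPKM and DNM2, the dynamin of endocytosis, at 31.6 ± 4.50 RPKM. The atlastins ATL2 and ATL3, which fuse endoplasmic reticulum membranes, followed at 7.21 ± 2.68 and 7.20 ± 0.73 RPKM. IRGM had 4, 2 and 4 reads and RNF112 was listed at 0. The mean levels of GBP1, GBP2, GBP3 and GBP4 exceeded the highest of these, that of MFN2. In replicate 1, however, MFN2 stood at 46.2 RPKM, against 46.3 RPKM for GBP2 and 16.1 RPKM for GBP3.

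Of 6 genes for lipid attachment to CaaX proteins and its processing 5 were detected, with a median of 5.21 RPKM. The methyltransferase ICMT stood at 47.0 ± 9.18 RPKM and the protease ZMPSTE24 at 19.3 ± 3.58 RPKM. RCE1, which trims the CaaX end, stood at 7.70 ± 1.38 RPKM, and FNTA, the subunit common to both prenyltransferases, at 2.72 ± 0.43 RPKM. FNTB, the farnesyltransferase beta subunit, was listed at 0 reads and lies wholly inside other spans.

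Among 15 partners and downstream genes 11 were detected, with a median of 15.6 RPKM. The 4 highest were the 14-3-3 genes YWHAQ, YWHAZ and YWHAB at 161, 78.0 and 75.4 RPKM, and the spectrin SPTBN1 at 66.9 RPKM. CASP5 was listed at 0 reads and PYCARD, the inflammasome adaptor, had 2 reads in every library, with 78.5% of its exon length inside other spans. CASP4, the caspase recruited to the coat, stood at 15.6 ± 0.65 RPKM and its substrate GSDMD at 20.9 ± 1.99 RPKM. APOL3, which permeabilises coated bacteria, stood at 32.9 ± 1.5 RPKM and FURIN at 33.2 ± 6.12 RPKM. These last 4 were named after their values were seen.

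The protein-coding genes nearest to GBP1 in level were found by the mean absolute difference in log2 RPKM over the 3 libraries. They were RPS12, at a difference of 0.18, MYH9 at 0.29, ENO1 at 0.31, AKR1B1 at 0.33 and IL32 at 0.34. Each of these 5 was highest in replicate 1, where GBP1 was lowest, so the likeness is one of level only.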

How the data were processed

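Poly(A) RNA of 3 RCC4 libraries, biological replicates of 1 group per the labels, was sequenced after directional library preparation. The submitters' processing notes name FastQC, cutadapt 1.18, HISAT2 2.1.0, featureCounts 2.0.0 and hg38. Not given in the sources used here are the gene annotation used and whether counting used strand. The authors deposited a signal per gene, read counts divided by a factor for each library (0.946, 0.971 and 1.24), as the values show. Dividing by the smallest step returned whole reads, within 0.01 of a read, for 100% of values above 0. With 1 group no count test was possible, so 0 genes are called. Counts of 2 reads (1621 genes in replicate 1) outnumbered counts of 1 read (269 genes), so reads may not be independent molecules, and floors cover counting error only.

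Reads were scaled by TMM in edgeR 4.0.16 (R 4.3.3). Lengths and GC content came from GENCODE 29, to which 96.3% of identifiers matched, and log2 levels used a pseudocount of 0.1 RPKM. GC correction subtracted the median of each of 20 bins of the 9095 protein-coding genes averaging 5 CPM or more. Sequences were aligned with Biopython 1.88. The pair rule and GC correction were tested on simulated data with a set spread, which need not match that of these libraries. Named genes were the 7 members, genes within 500 kb, the 5 nearest to GBP1 in level and, in each context list, the 4 highest and those under 10 reads. The members and lists were chosen with earlier results of these data known. Some named genes are not reported here.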

Additional observations from a re-analysis of the deposited data

How the results depend on the processing

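With DESeq2 1.42.0 size factors, library totals, other pseudocounts, other lengths, GC correction or 1 library left out, the order of GBP1, then GBP4, and the low places of GBP5, GBP6 and GBP7 were kept wherever they were computed. The number of detected members was 5, or 6 at 0.1 CPM or at 10 reads in every library. For these looser rules the share of all protein-coding genes was not computed. Between 17 and 21 pairs were past the spread, and 18 to 21 with 1 library left out. The share of all gene pairs past the spread was not computed under these alternatives. GBP1 took 77.5% of family reads per kilobase of exon, and 74.5% to 75.0% of reads with 1 library left out; the family share then ran from 0.449% to 0.531%. The log2 ratio of GBP2 to GBP3 turned to -0.68 with the gene span as length and to -0.43 without replicate 1, and ran from -0.43 to 0.57 with 1 library left out; the cause of the first was not tested. The ratio of GBP3 to GBP5 kept its direction but was no longer past the spread over exons outside other spans (1.47), with the gene span (1.09), without length scaling (1.33) and without replicate 2 (2.06). GBP3 was the 1 member below 50% in replicate 1 under all 6 alternatives, at log2 -2.04 to -1.55; without replicate 1 there is no such value. No paired analysis was possible because the series has 1 group. At these depths GBP6 and GBP7 rest on at most 37 reads in a library. The log2 ratio of GBP5 to GBP6 ran from 2.81 with a pseudocount of 1 RPKM to 6.08 without length scaling, and that of GBP4 to GBP2 from 0.52 with the longest coding transcript to 2.55 with the gene span; both kept their call.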

Other observations

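Besides GBP3, 4 genes took the lowest places of its GC bin in replicate 1, as seen after the values were examined. SEMA3C had 501 reads in replicate 1 and 3330 and 5449 in replicates 2 and 3, a log2 ratio of -2.92. ZNF268 stood at -2.55, MYBL1 at -2.33 and UTRN, which encodes utrophin, at -2.12. Near the cluster PKN2 stood at -2.49 and KYAT3 at -1.23, while GTF2B stood at -0.20, PTGES3P1 at -0.22 and LRRC8D at 0.04. These ratios carry no GC correction, and whether genes around the cluster moved together in replicate 1 was not tested. GBP1P1 stood at -0.69 by the same measure, between GBP5 and GBP3.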
